A study of Mus musculus with 4 samples.

Results

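The genes described here are 9 cytochrome P450 genes of the mouse gut, Cyp3a11, Cyp3a13, Cyp3a25, Cyp2c55, Cyp2c65, Cyp2c66, Cyp2c68, Cyp2d26 and Cyp2b10. They were taken by symbol from the list of measured genes and make up 9 of its 94 P450 genes and 9 of its 31053 genes. All 9 symbols were found, and each matched a single gene. The genes were followed in 4 single-cell RNA libraries of small-intestinal crypt cells collected 7 days after bone marrow transplantation. In the allogeneic group, lethally irradiated C57BL/6 mice had been given BALB/c marrow and are labelled as having graft-versus-host disease, in which donor T cells attack tissues of the recipient. In the syngeneic control group, C57BL/6 mice had the same lethal irradiation and C57BL/6 marrow, so that irradiation and a transplant were common to both groups. Each group has 2 libraries, and each library is a pool of cells from 3 to 4 female mice aged 8 to 12 weeks, so the spread given below is between pools. Every title starts with the letters "KO", left without explanation in the labels. Neither an unirradiated group nor a group without a transplant was analysed here.

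Cytochrome P450 enzymes are heme proteins of the endoplasmic reticulum that add oxygen to drugs, steroids, bile acids, retinoids and fatty acids, with electrons passed on by the reductase Por. In the gut they sit mainly in the absorptive enterocytes of the villus, where they carry out part of the first-pass metabolism of swallowed drugs, and their genes are controlled by nuclear receptors such as PXR (Nr1i2), CAR (Nr1i3) and HNF4. The CYP3A enzymes, here Cyp3a11, Cyp3a13 and Cyp3a25, oxidise a wide range of drugs and steroids. The CYP2C enzymes, here Cyp2c55, Cyp2c65, Cyp2c66 and Cyp2c68, include epoxygenases and hydroxylases of arachidonic acid. Cyp2b10 is a classical target of CAR, and Cyp2d26 belongs to the mouse CYP2D family.

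The genes lie in tight families. On GRCm38, the build of the GENCODE annotation used here, Cyp3a11 spans chr5:145854426-145879964 on the minus strand and Cyp3a25 spans chr5:145977194-146009618 on the same strand, while Cyp3a13 lies apart on that chromosome at chr5:137892932-137921619, also on the minus strand. Cyp2c55 (chr19:39007019-39042693), Cyp2c65 (chr19:39061015-39093944) and Cyp2c66 (chr19:39113898-39187072) follow each other on the plus strand, and Cyp2c68 lies beyond them on the minus strand (chr19:39688834-39741054). Cyp2d26 is at chr15:82790101-82794294 on the minus strand and Cyp2b10 at chr7:25897620-25926624 on the plus strand. All are protein-coding genes with up to 13 exons in CYP3A genes, up to 10 in Cyp2b10 and up to 9 in the others. The libraries count 3′ ends, and copies of a gene can share these. Of the 50-base words in the last 500 transcript bases, 51.2% in Cyp2c68 also occur in Cyp2c40, Cyp2c67 or Cyp2c69, and 25.7% in Cyp2d26 occur in other CYP2D genes or pseudogenes. The share was 7.5% in Cyp2b10, between 2.2% and 3.3% in Cyp3a25, Cyp2c65 and Cyp2c66, and 0 in the other members. How reads from such shared ends were counted was not examined, so the counts of Cyp2c68 and Cyp2d26 are uncertain.

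Promoter sequence is shown for 5 members, to set those that carry a match to an HNF4 motif beside those that do not. The 9 letters CAAAGTCCA, searched on both strands, were found in the 250 bases before the RefSeq start of Cyp2c65, Cyp2c68 and Cyp3a11, which is 3 of 9 members, and in 103 of 27025 mouse promoters (0.381%). The half-site AGGTCA, which does not overlap these matches, was found in 2 of 9 members against 13.8% of promoters, and TATAAA in 5 of 9 members against 13.0% of promoters. The sequences, from RefSeq on GRCm38.p6, run 5′ to 3′ along the gene's own strand with the motif in capitals, at chr19:39060856-39061005 on the plus strand, chr19:39113748-39113897 on the plus strand, chr19:39741102-39741251 on the minus strand, chr5:145879955-145880104 on the minus strand and chr5:137921620-137921769 on the minus strand.
Cyp2c65: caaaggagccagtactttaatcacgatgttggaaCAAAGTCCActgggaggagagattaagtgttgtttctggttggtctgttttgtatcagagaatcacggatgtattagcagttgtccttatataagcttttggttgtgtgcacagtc
Cyp2c66: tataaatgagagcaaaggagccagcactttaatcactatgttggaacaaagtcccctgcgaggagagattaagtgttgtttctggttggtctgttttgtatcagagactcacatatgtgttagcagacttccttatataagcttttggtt
Cyp2c68: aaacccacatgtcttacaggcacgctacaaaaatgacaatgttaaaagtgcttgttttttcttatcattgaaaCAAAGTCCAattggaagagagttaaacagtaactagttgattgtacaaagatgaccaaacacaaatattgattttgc
Cyp3a11: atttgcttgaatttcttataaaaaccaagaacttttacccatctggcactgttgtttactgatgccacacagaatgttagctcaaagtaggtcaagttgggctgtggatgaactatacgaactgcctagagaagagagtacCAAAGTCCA
Cyp3a13: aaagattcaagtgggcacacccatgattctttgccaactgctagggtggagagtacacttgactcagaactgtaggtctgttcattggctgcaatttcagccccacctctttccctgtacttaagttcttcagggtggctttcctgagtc
Each stretch is 150 bases. It ends 1 base before the RefSeq start, except in Cyp3a11, where it ends 101 bases before it and its last 10 bases, which include the motif, lie inside a transcript that GENCODE starts earlier. The motif lies 116 to 108 bases before the start in Cyp2c65, 77 to 69 in Cyp2c68 and 109 to 101 in Cyp3a11. The 250 bases before Cyp2c65 and Cyp2c66 share 83.2% of their bases in a global alignment, but those before Cyp2c66 hold no exact match. None was found before Cyp3a13 either. Such matches describe the letters only and are not measured binding sites.

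The libraries held 16755124 and 26677842 unique molecular identifiers (UMIs, counted RNA molecules) in allogeneic 1 and 2, against 18262459 and 14961466 in syngeneic 1 and 2. After filtering, 2053 and 4815 allogeneic cells and 2871 and 2457 syngeneic cells were kept, and any pair of libraries shared between 0 and 6 barcodes. Cells were clustered without any P450 gene and clusters were named from marker genes, with 21 clusters in all. The enterocyte-like class held 430 and 2322 allogeneic cells and 613 and 649 syngeneic cells. Different clusters hold this class in the 2 groups. Clusters 0, led by Leap2 and Slc5a12, 10, led by Ly6d, and 13, led by Myot, hold mostly allogeneic cells, while cluster 19, led by Clca4a and Lct, and cluster 6, led by Reg3a and Ocm, hold mostly syngeneic cells. The label names crypt epithelial cells, and the cells carried the enterocyte markers at a summed 63360 and 68300 CPM (counts per 1000000 UMIs of the class) in the allogeneic libraries and 76290 and 85420 CPM in the syngeneic libraries, with all 12 markers present in each library. Of 8 hepatocyte markers listed, 7 were in the files. They summed to 1.58 and 19.5 CPM in allogeneic and 1.47 and 0 CPM in syngeneic enterocyte-like cells, and Alb was at 0 in all 4 libraries. The UMIs of allogeneic 2 came from 2 of these genes, Apoh and Ttr. The part of such RNA in the results was not tested.

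In enterocyte-like cells, 8 of the 9 P450 genes had lower levels in both allogeneic libraries than in both syngeneic libraries, and Cyp3a13 had higher levels in both. The fall passed the test across all genes in 4 members, Cyp2c66, Cyp2c68, Cyp2d26 and Cyp2b10. Over all genes tested in these cells, 28.2% had both allogeneic libraries below both syngeneic ones and 17.6% had both above. At an adjusted p under 0.05 (edgeR quasi-likelihood test, Benjamini-Hochberg over 8228 genes), 2.25% of genes were called, 1.17% higher and 1.08% lower, against 4 of 9 members, all lower. Of these 4, Cyp2c66, Cyp2c68 and Cyp2b10 met the filter on low counts only through the syngeneic libraries, where they were high. Such a gene can hardly be called other than lower, so the share of members called is bound to that filter. With no filter on low counts, 5 of 9 members were called, 1 higher and 4 lower, among 4.92% of genes called. The median log2 fold change was -2.52 over the 9 members and 0.01 over all genes. Fold changes below are allogeneic over syngeneic on the log2 scale, and the standard error (SE) is the fold change divided by the root of the test's F value.

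Cyp2d26 had 64 and 51 UMIs in the allogeneic libraries, against 469 and 480 in the syngeneic libraries. As CPM over all UMIs of the class, this was 33.6 and 5.41 CPM against 172.5 and 190.9 CPM. The groups did not overlap, and the allogeneic 2 pool was the lowest. Cyp2d26 fell by 3.37 on the log2 scale (SE 0.64, edgeR adjusted p = 0.0402), with means of 19.5 ± 19.9 CPM in allogeneic and 181.7 ± 13.0 CPM in syngeneic pools (SD, n = 2 each). Cyp2b10, the CAR target, had 14.2 and 3.60 CPM in allogeneic and 46.3 and 42.6 CPM in syngeneic libraries. The groups did not overlap, and Cyp2b10 fell by 2.52 on the log2 scale (SE 0.49, edgeR adjusted p = 0.0444).

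Of the CYP2C genes, Cyp2c68 had 18 and 10 UMIs in allogeneic and 142 and 103 UMIs in syngeneic enterocyte-like cells, which is 9.45 and 1.06 CPM against 52.2 and 41.0 CPM. It fell by 3.64 on the log2 scale (SE 0.70, edgeR adjusted p = 0.0428), and again the groups did not overlap. With DESeq2 the call was lost, at -3.21 (adjusted p = 0.130). Cyp2c66 was at 1 and 0 UMIs in the allogeneic libraries and at 25 and 16 UMIs in the syngeneic libraries. The test called it lower (edgeR adjusted p = 0.0245), and the group means were 0.26 CPM in allogeneic and 7.78 CPM in syngeneic libraries, the syngeneic mean 29.6 times the allogeneic one. With UMIs pooled over the libraries of each group, so that the larger library weighs more, the ratio of the syngeneic to the allogeneic level was 88.8, with a 95% counting interval from 15.1 to 3590. Cyp2c65, its neighbour, had 37 and 12 UMIs in allogeneic and 187 and 196 UMIs in syngeneic libraries, or 19.4 and 1.27 CPM against 68.8 and 77.9 CPM. Its groups did not overlap, but at a log2 fold change of -3.24 (SE 0.84) the adjusted p was 0.105. Cyp2c55, known for making hydroxylated arachidonic acid in the gut, had 50.9 and 1.38 CPM in allogeneic libraries against 86.1 and 134.8 CPM in syngeneic libraries. The groups did not overlap, allogeneic 2 was far below the other libraries, and the log2 fold change of -2.30 (SE 1.11) had an adjusted p of 0.375.

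The CYP3A genes were split. Cyp3a13 had 2339 and 6210 UMIs in allogeneic and 1166 and 981 UMIs in syngeneic enterocyte-like cells. This was 1228 and 658.3 CPM against 428.9 and 390.1 CPM. Both allogeneic pools were above both syngeneic pools, but the log2 fold change of 1.27 (SE 0.33) did not pass the threshold, with an edgeR adjusted p of 0.101. DESeq2 called it higher at 1.28 (adjusted p = 0.00587), with 3.93% of genes called by that tool, and so did edgeR without the filter on low counts (adjusted p = 0.0183), with 4.92% of genes called. Cyp3a11, a main drug-metabolising CYP3A of mouse liver and gut and a PXR target, had 524 and 274 UMIs, or 275.2 and 29.0 CPM, in allogeneic libraries and 872 and 933 UMIs, or 320.7 and 371.0 CPM, in syngeneic libraries. Allogeneic 1 was close to the syngeneic pools and allogeneic 2 far below them, and the log2 fold change was -1.22 (SE 0.74, adjusted p = 0.486). Cyp3a25 showed the same order, with 100.3 and 5.09 CPM in allogeneic and 111.1 and 143.5 CPM in syngeneic libraries, a log2 value of -1.39 (SE 0.96) and an adjusted p of 0.550.

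**Figure D1:**
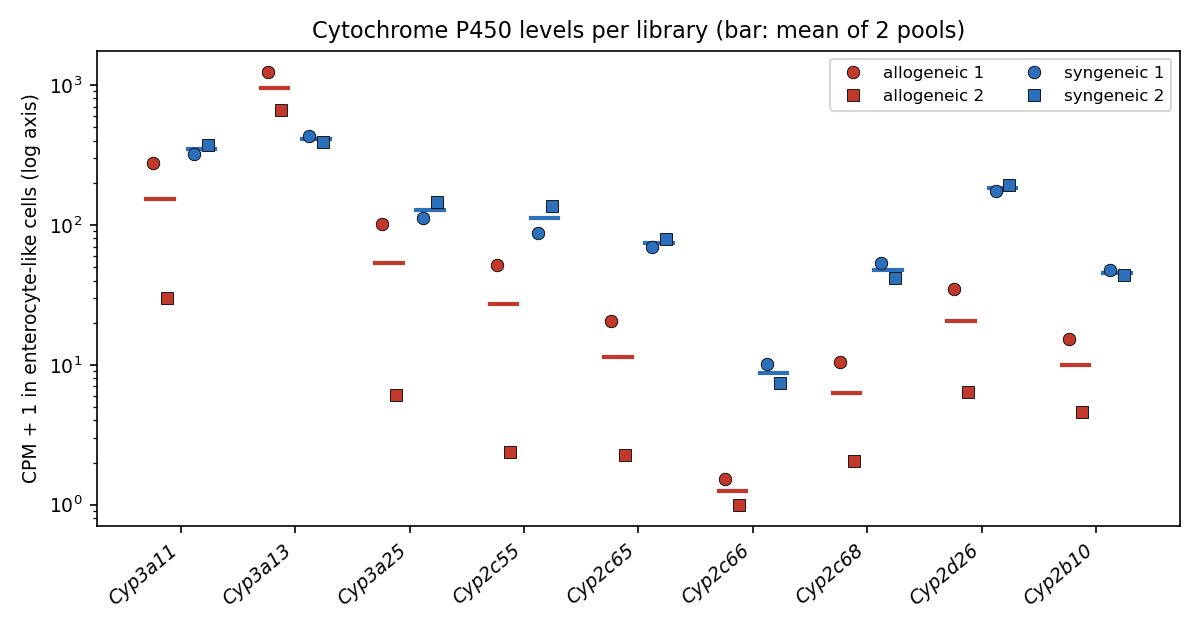
Level of each gene in enterocyte-like cells on a log axis (CPM + 1), with a point per library and a bar for the mean of the 2 pools of a group, allogeneic in red left of syngeneic in blue. Cyp3a13 has both allogeneic points above the syngeneic ones and the other 8 genes have both below, and the gap between the 2 allogeneic pools is wide for Cyp3a11, at 275.2 and 29.0 CPM.

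Summed levels differed with and without Cyp3a13. All 9 members together came to 1732 and 705.1 CPM in allogeneic and 1296 and 1398 CPM in syngeneic libraries, which overlap. Without Cyp3a13, the other 8 came to 503.6 and 46.9 CPM in allogeneic libraries against 866.9 and 1008 CPM in syngeneic libraries, which do not. The calls depended on which allogeneic pool was used. Without allogeneic 1, all 9 members passed (8 lower and Cyp3a13 higher), as did 38.9% of all genes tested. Without allogeneic 2, 7 passed (6 lower and Cyp3a13 higher) and Cyp3a11 and Cyp3a25 did not, at log2 fold changes of -0.37 and -0.39, with 18.2% of all genes called. Without syngeneic 1 or 2, the same 4 members were called, joined by Cyp2c65 without syngeneic 2 (adjusted p = 0.0471), among 1.68% of genes called without syngeneic 1 and 1.92% without syngeneic 2. When a group is left with 1 pool, that pool is assumed to vary like the others. These fits also used the filter on low counts, so the limit it sets, given above, can hold for the lower members.

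Other measures were compared between the groups in these cells, and some but not all of them moved with the groups. The median share of mitochondrial UMIs was 14.1% and 7.65% in allogeneic and 10.4% and 10.3% in syngeneic enterocyte-like cells, so the allogeneic pools lay on both sides of the syngeneic ones. With a limit of 10% on that share, 45 and 1218 allogeneic and 334 and 349 syngeneic cells were left. Then 7 of 8 members tested were called, 6 lower and Cyp3a13 higher, among 7.95% of genes called. The filter on low counts was used in this fit too, so the limit it sets, given above, can hold for the lower members. Distal small-intestinal genes, 12 on the list and all present in each library, summed to 18950 and 27210 CPM in allogeneic and 52560 and 54640 CPM in syngeneic libraries. Of this, Fabp6, the ileal bile acid binding protein, made up 8411 and 18140 CPM in allogeneic and 45240 and 47360 CPM in syngeneic libraries. The distal list did not fall as a whole. Of its 11 genes tested, 5 had a log2 fold change below 0 and 6 above, with a median of 0.02. Proximal genes, 14 on the list with 12 or 13 detected, summed to 8924 and 9159 CPM in allogeneic and 6795 and 6626 CPM in syngeneic libraries. Of the 11 tested, however, 7 had a log2 fold change below 0 and 4 above, with a median of -0.26. Cycling markers, 12 on the list, summed to 131.8 and 175.6 CPM in allogeneic against 47.1 and 54.5 CPM in syngeneic libraries, and 2 of the 9 tested were called higher by edgeR. Stem cell markers, 9 on the list, summed to 48.3 and 16.0 CPM in allogeneic and 68.8 and 71.2 CPM in syngeneic libraries, with Gkn3 at 0 in all 4 and Lgr5 at 0 in both syngeneic ones, and 1 of the 4 tested was called lower. Paneth cell markers, 10 on the list, summed to 261.0 and 140.1 CPM in allogeneic and 321.5 and 262.0 CPM in syngeneic libraries. Of the 9 tested, 7 lay below and 2 above 0. EdgeR called 3 lower and none higher, and DESeq2 called 3 lower and 2 higher. Goblet cell markers, also 10, summed to 278.8 and 453.2 CPM in allogeneic and 880.1 and 744.4 CPM in syngeneic libraries; none of the 7 tested was called by edgeR, with 3 at an unadjusted p under 0.05 and none called by DESeq2. T or NK cell markers, 10 on the list, summed to 2.63 and 7.21 CPM in allogeneic and 2.21 and 5.57 CPM in syngeneic libraries, with Cd8a and Nkg7 at 0 in allogeneic 1 and syngeneic 1. The part of RNA of these other cell types in the P450 differences was not tested.

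The fall was also looked for among cells alike in regional genes, a split added after the data had been seen. Cells with more UMIs from the proximal than the distal list made up 28.1% and 19.2% of the class in allogeneic and 24.3% and 21.9% in syngeneic libraries. In these proximal-leaning cells Cyp2d26 had 75.3 and 16.9 CPM in allogeneic against 365.3 and 404.0 CPM in syngeneic libraries, a log2 fold change of -3.12 (edgeR adjusted p = 0.00674). Here 4 of 8 members tested were called lower, Cyp2c65, Cyp2c68, Cyp2d26 and Cyp2b10, among 2.78% of genes called. In the remaining cells Cyp2d26 had 18.6 and 3.06 CPM in allogeneic against 126.6 and 150.4 CPM in syngeneic libraries, a log2 fold change of -4.06 (edgeR adjusted p = 0.00939). There 3 of 9 were called lower, Cyp2c66, Cyp2c68 and Cyp2d26, among 2.84% of genes called. In both parts Cyp3a13 was higher in both allogeneic pools and did not pass the threshold. The share of all genes with that order was not computed within these parts. The limit set by the filter on low counts, given above, holds for the lower members in both parts, Cyp2d26 among them.

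Within clusters, the values are a description without a test. Cluster 19, with 276 and 335 syngeneic cells and only 5 and 2 allogeneic ones, had Cyp3a11 at 821.9 and 808.8 CPM, Cyp2d26 at 313.3 and 343.5 CPM and Cyp2b10 at 111.2 and 94.7 CPM in the syngeneic libraries. Cluster 0, with 336 and 892 allogeneic cells, had Cyp3a11 at 359.1 and 81.5 CPM, Cyp2d26 at 37.7 and 12.3 CPM and Cyp2b10 at 18.5 and 10.4 CPM in the allogeneic libraries. Cyp3a13 was at 1487 and 984.4 CPM in the allogeneic cells of cluster 0 and at 641.1 and 544.6 CPM in the syngeneic cells of cluster 19. Cluster 6 is the only enterocyte-like cluster with over 20 cells of every library, at 25 and 27 allogeneic and 331 and 304 syngeneic cells. There Cyp3a13 had 628.2 and 410.9 CPM in allogeneic against 299.5 and 270.2 CPM in syngeneic libraries, and the other 8 members summed to 131.3 and 0 CPM against 393.5 and 473.7 CPM.

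**Figure D2:**
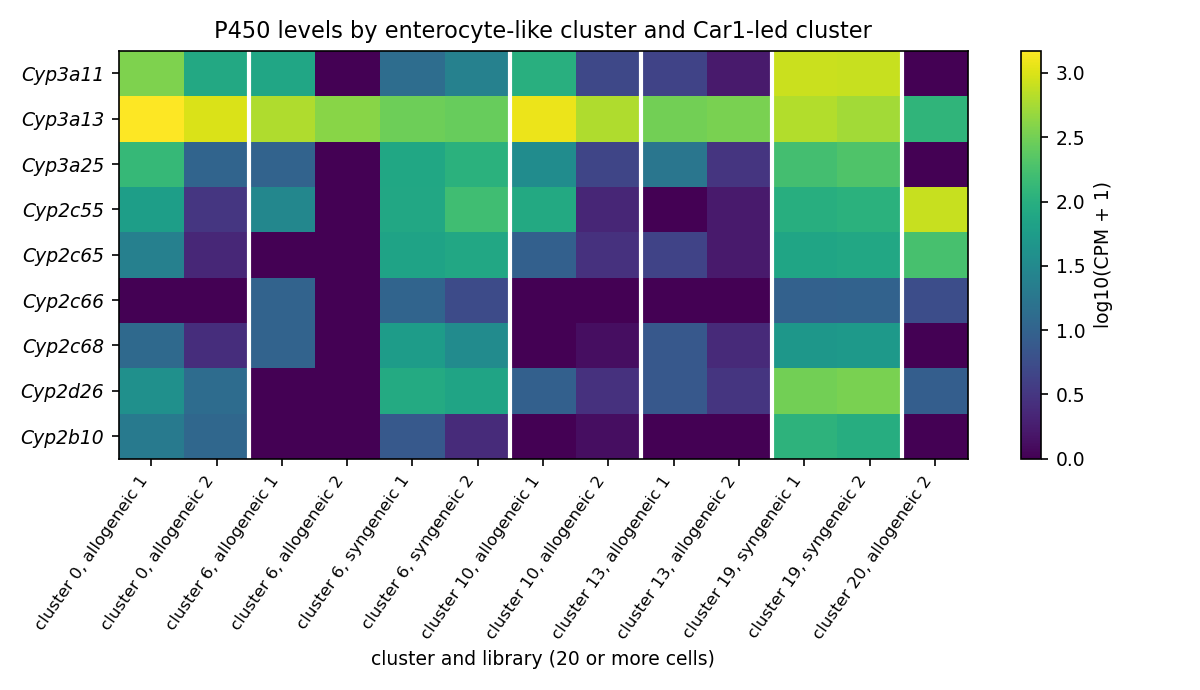
Level of each gene, as log10(CPM + 1) in colour, in the 5 enterocyte-like clusters and the Car1-led cluster 20, by library, for libraries with 20 or more cells in the cluster. Cyp3a13 is at 270.2 CPM or more in every enterocyte-like column, Cyp3a11 and Cyp2d26 are brightest in the syngeneic cells of cluster 19, and Cyp2c55 is brightest in cluster 20 of allogeneic 2, at 805.4 CPM.

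Counting cells gave the same order. Each cell was thinned to 2000 UMIs, which kept 344 and 1917 allogeneic and 545 and 518 syngeneic enterocyte-like cells and left out 86 and 405 allogeneic and 68 and 131 syngeneic ones. Cyp3a13 was then seen in 84.6% (95% exact interval 80.3 to 88.2) and 69.5% (67.4 to 71.5) of allogeneic cells, against 53.8% (49.5 to 58.0) and 52.9% (48.5 to 57.3) of syngeneic cells. Any of the other 8 members was seen in 43.0% (37.7 to 48.4) and 6.83% (5.74 to 8.06) of allogeneic cells, against 68.8% (64.7 to 72.7) and 72.0% (67.9 to 75.8) of syngeneic cells. Without thinning these last shares were 56.7% and 10.3% in allogeneic and 83.2% and 85.1% in syngeneic libraries. Cyp2d26 was seen in 6.69% and 1.04% of thinned allogeneic cells and in 29.5% and 33.0% of syngeneic cells. The intervals cover counting error only.

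T or NK-like cells, which should lack these enzymes, give the level of stray RNA. In the 87 and 76 such allogeneic cells left after thinning, Cyp3a13 was seen in 6.90% and 6.58%, and any of the other 8 in 8.05% and 1.32%. Their median depth was 1590 and 1626 UMIs before thinning, against 3859 and 3434 in allogeneic enterocyte-like cells. Thinning left out 145 and 126 shallower T or NK-like cells of these libraries. Over all of them before thinning, any of the other 8 was seen in 3.02% and 1.49%. The syngeneic libraries left only 8 and 9 such cells, too few for a level. Before thinning, their 17 and 33 T or NK-like cells held the other 8 members at 371.8 and 13.2 CPM, from 19 and 1 UMIs. The allogeneic ones held them at 37.2 and 7.06 CPM. The part of stray RNA in the syngeneic levels was not tested. The Cyp2d26 share of 1.04% in allogeneic 2 stands beside 0 of 76 T or NK-like cells, which by the floor of 3 counts allows a share of up to 3.95%, so in that library the share could not be told apart from stray RNA at this depth. The same holds there for Cyp3a25, Cyp2c55, Cyp2c65, Cyp2c66, Cyp2c68 and Cyp2b10, each seen in at most 0.99% of cells, and for Cyp3a11, seen in 3.86% of enterocyte-like and 1.32% (0.03 to 7.11) of T or NK-like cells. In allogeneic 1, Cyp2d26 was seen in 6.69% and Cyp2c65 in 3.78% of enterocyte-like cells, each against 2.30% (0.28 to 8.06) of T or NK-like cells. Cyp2b10 was seen there in 3.20% and Cyp2c68 in 1.45% of enterocyte-like cells, each against 0 of 87 T or NK-like cells, which by the same floor allows up to 3.45%. At this depth and number of cells, these 4 shares could not be told apart from stray RNA either. Before thinning, Cyp2d26 was seen in 11.63% of enterocyte-like and 0.86% of all 232 T or NK-like cells of allogeneic 1. For Cyp2c65 it was 7.21% against 1.29%. Cyp2b10 was seen in 5.35% and Cyp2c68 in 3.95%, each against 0 of 232 T or NK-like cells. These shares are at unlike depth, with medians of 3859 and 1590 UMIs, and their difference was not tested. Cyp2c66 was seen in 0 of 344 enterocyte-like cells of allogeneic 1, which by the same floor allows a share of up to 0.87%.

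**Figure D3:**
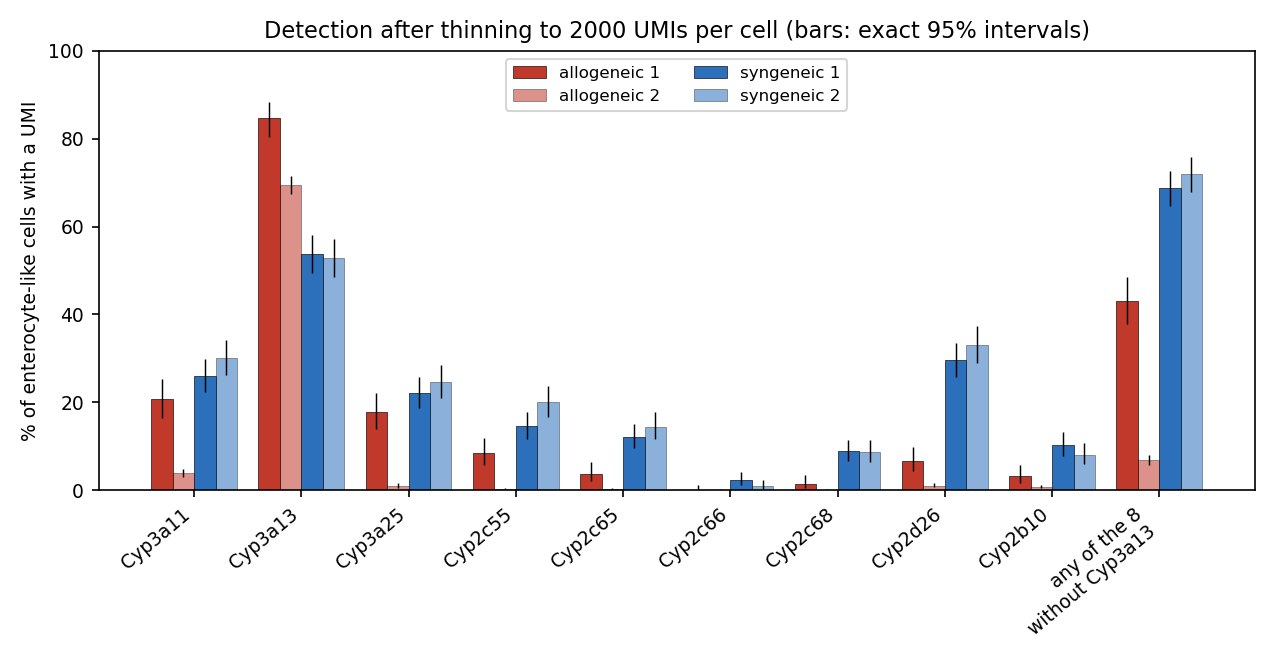
Share of enterocyte-like cells with at least 1 UMI of each gene after thinning to 2000 UMIs per cell, by library, with exact 95% intervals, allogeneic bars in red left of syngeneic bars in blue. Cyp3a13 reaches 84.6% and 69.5% in the allogeneic libraries, above the syngeneic ones, while any of the other 8 genes is found in 43.0% and 6.83% of allogeneic cells.

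Most of the transcripts lay in the enterocyte-like class, but not equally for all genes. This class held 98.9% and 96.5% of the epithelial UMIs of Cyp3a11 in allogeneic and 97.9% and 98.7% in syngeneic libraries. Cyp2d26 had 86.5% and 83.6% there in allogeneic and 94.6% and 97.0% in syngeneic libraries. Cyp3a25 and Cyp2b10 had between 90.0% and 98.2% of their UMIs there in each library. For Cyp3a13 the shares were 92.3% and 92.5% in allogeneic and 85.9% and 84.9% in syngeneic libraries. Cyp2c68 was spread more widely, with 32.7% and 18.2% in allogeneic and 47.2% and 43.8% in syngeneic libraries. Cyp2c65 had 56.9% and 6.2% in allogeneic and 55.3% and 60.5% in syngeneic libraries. Cyp2c68 was also found in goblet-like cells, at 33.0 and 21.9 CPM in allogeneic and 46.2 and 41.1 CPM in syngeneic libraries, and in Paneth-like cells, at 12.4 and 12.9 CPM in allogeneic and 13.7 and 16.3 CPM in syngeneic libraries. In Paneth-like cells it was not called, at -0.25 on the log2 scale (SE 0.35, edgeR adjusted p = 0.885).

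In allogeneic 2, most Cyp2c55 UMIs lay outside the enterocyte-like class, as did those of the other CYP2C members. Only 1.8% of the 721 epithelial Cyp2c55 UMIs of that library were in enterocyte-like cells, against 95.1% of 102 in allogeneic 1. In the syngeneic libraries it was 91.1% of 257 and 92.9% of 365. In allogeneic 2, 706 of the 721, or 97.9%, were in cluster 20, an unnamed cluster led by Car1, a carbonic anhydrase abundant in the colon, with 2 and 137 allogeneic and no syngeneic cells. The same cluster held 154 of the 193 Cyp2c65 UMIs of allogeneic 2 and all 4 of its Cyp2c66 UMIs, but none of its Cyp3a11, Cyp3a25, Cyp2c68 or Cyp2b10 UMIs. As nearly all of it came from 1 library, the cluster may stand for that library and not for a cell type.

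Outside the enterocyte-like class, 7 of the 9 members had counts enough for a test, and only Cyp2c68 was called, among 0.458% of 11780 genes called, 0.365% higher and 0.0934% lower. It had 37 and 45 UMIs in allogeneic and 159 and 132 UMIs in syngeneic libraries, or 3.16 and 3.02 CPM against 11.5 and 12.1 CPM. The groups did not overlap, as was so with allogeneic below in 17.3% and above in 23.4% of genes, and Cyp2c68 fell by 1.95 on the log2 scale (SE 0.25, edgeR adjusted p = 0.0458); without syngeneic 2 the adjusted p was 0.0554, with 1.25% of genes called. Cyp2c55 stood at 3.70 on the log2 scale (SE 1.75, adjusted p = 0.487), from 0.43 and 47.5 CPM in allogeneic and 1.66 and 2.39 CPM in syngeneic libraries. Without the Car1-led cluster its log2 fold change was -2.86 (adjusted p = 0.0926), and Cyp2c65 was then called lower as well, at -2.47 (adjusted p = 0.0236), among 0.764% of genes called. Cyp3a13 was at 16.6 and 34.0 CPM in allogeneic and 13.9 and 16.0 CPM in syngeneic cells of this set, at 0.80 on the log2 scale (SE 0.42, adjusted p = 0.515).

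Among single classes, both members tested in cycling progenitor-like cells were called, against 2.72% of 10105 genes, 1.52% higher and 1.20% lower. This class held 466 and 944 allogeneic and 562 and 418 syngeneic cells, and its cluster 3, led by the interferon-induced chemokine Cxcl10, held 147 and 529 allogeneic and 8 and 6 syngeneic cells. Cyp3a13 had 57 and 84 UMIs in allogeneic and 16 and 13 UMIs in syngeneic libraries, or 13.2 and 13.3 CPM against 4.77 and 5.11 CPM. It rose by 1.52 on the log2 scale (SE 0.36, edgeR adjusted p = 0.0471). Cyp2c65 had 12 and 7 UMIs in allogeneic and 34 and 20 UMIs in syngeneic libraries, or 2.77 and 1.11 CPM against 10.1 and 7.86 CPM. It fell by 2.20 on the log2 scale (SE 0.47, edgeR adjusted p = 0.0291). For both genes the groups did not overlap. The share of all genes with such an order was not computed within this class. Over all epithelial cells outside the enterocyte-like class it was 17.3% with allogeneic below and 23.4% with allogeneic above. T or NK-like cells of the allogeneic libraries held Cyp3a13 at 48.3 and 75.3 CPM, above the level in cycling progenitor-like cells, so that this level cannot be told apart from stray RNA. The floor of 3 counts in those T or NK-like cells is 5.58 and 7.06 CPM, above the allogeneic Cyp2c65 levels. These cannot be told apart from stray RNA either, and Cyp2c65 met the filter on low counts only through the syngeneic libraries.

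Cyp3a13 was above the syngeneic libraries in both allogeneic libraries in 3 further classes, without passing the edgeR threshold. The share of all genes with such an order was not computed within these classes either. In goblet-like cells it had 96.3 and 258.3 CPM in allogeneic and 41.3 and 33.3 CPM in syngeneic libraries (log2 fold change 2.51, SE 0.56, adjusted p = 0.251). In tuft-like cells it had 65.0 and 66.1 CPM in allogeneic and 7.92 and 14.2 CPM in syngeneic libraries (log2 fold change 2.69, SE 0.61, adjusted p = 0.134), from 18 and 14 UMIs against 3 and 3. In stem-like cells it had 9.97 and 13.5 CPM in allogeneic and 2.59 and 6.24 CPM in syngeneic libraries (log2 fold change 1.33, SE 0.59, adjusted p = 0.332), with only 2 UMIs in allogeneic 2. Set beside the 48.3 and 75.3 CPM of allogeneic T or NK-like cells, the goblet-like levels were higher, the tuft-like levels alike and the stem-like levels lower. These T or NK-like cells were shallower, with medians of 1590 and 1626 UMIs against 5371 and 3741.5 in allogeneic tuft-like cells. A stray UMI weighs more in the CPM of a shallower cell, so this order does not give the part of stray RNA, which was not tested. In Paneth-like cells, by contrast, it was at 3.64 and 3.88 CPM in allogeneic and 5.36 and 2.13 CPM in syngeneic libraries, where the groups overlapped. In the unnamed epithelial clusters, which were not tested, it was at 16.5 and 24.2 CPM in allogeneic and 31.0 and 37.2 CPM in syngeneic libraries, below in both. No member was called by edgeR in stem-like, Paneth-like, goblet-like or tuft-like cells, with 1, 0, 2 and 1 members at an unadjusted p under 0.05 out of 1, 1, 3 and 1 tested. Across all genes, the shares called in these 4 classes were 1.77%, 1.29%, 0.0138% and 0.396%. No member had counts enough in enteroendocrine-like cells.

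Over all epithelial cells together, only Cyp2d26 passed the test, at an edgeR adjusted p of 0.049995 that lies just under the threshold. It had 5.44 and 2.51 CPM in allogeneic and 29.9 and 36.9 CPM in syngeneic libraries and fell by 3.11 on the log2 scale (SE 0.32), with 0.158% of 12028 genes called, 0.141% higher and 0.0166% lower. Both allogeneic libraries were below both syngeneic ones in 7 of 9 members, against 17.8% of genes, and above them in Cyp3a13, against 18.2% of genes. With DESeq2, 6 of 9 members were called, 5 lower and Cyp3a13 higher, among 2.81% of genes called, and with relative log expression (RLE) scaling in edgeR none, among 0.133% of genes called, with Cyp2d26 at 0.0526 and 7 at an unadjusted p under 0.05. Without allogeneic 1 the count was 8, among 45.2% of genes called, and without allogeneic 2 it was 7, among 23.5%. Without syngeneic 1 it was 3, among 0.780%, and without syngeneic 2 it was 2, among 0.876%. Cyp3a13 had 186.1 and 276.1 CPM in allogeneic and 82.0 and 86.2 CPM in syngeneic epithelium (log2 fold change 1.55, adjusted p = 0.261). In such sums over the whole epithelium, more or fewer enterocyte-like cells and more or less RNA per cell cannot be told apart; these cells were 430 of 1808 and 2322 of 4608 epithelial cells in allogeneic and 613 of 2854 and 649 of 2424 in syngeneic libraries.

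**Figure D4:**
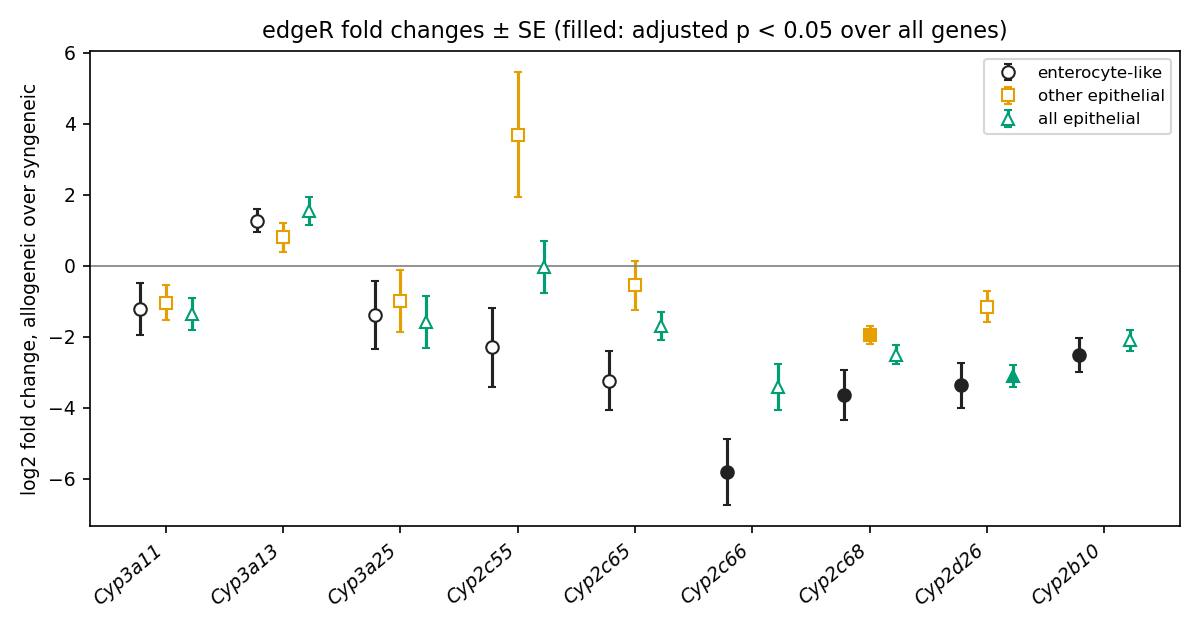
Log2 fold change of allogeneic over syngeneic libraries ± SE by edgeR for each gene in enterocyte-like, other epithelial and all epithelial cells, with filled symbols at an adjusted p under 0.05. Cyp2c66, Cyp2c68, Cyp2d26 and Cyp2b10 are filled in enterocyte-like cells, Cyp2c68 in other epithelial cells and Cyp2d26 in all epithelial cells.

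The difference of the allogeneic effect between enterocyte-like and other epithelial cells was tested directly, with a term for each library. No member was called by edgeR, against 3.80% of 12003 genes, and 2 of 9 had an unadjusted p under 0.05. The effect on Cyp2d26 was lower by 2.24 on the log2 scale (SE 0.69) in enterocyte-like cells, with an unadjusted p of 0.0129 and an adjusted p of 0.156. For Cyp2c66 the difference was -5.78 (SE 2.03, unadjusted p = 0.0107, adjusted p = 0.142), with few counts on either side. For Cyp3a13 it was 0.55 (SE 0.95, adjusted p = 0.867), which does not show that its effect was equal in both.

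Among the other 85 P450 genes, 12 had counts enough for a test in enterocyte-like cells and 1 was called. Cyp2j6, of a family of arachidonic acid epoxygenases, had 33.1 and 24.4 CPM in allogeneic and 101.5 and 83.1 CPM in syngeneic libraries and fell by 1.60 on the log2 scale (SE 0.26, edgeR adjusted p = 0.0248). The median log2 fold change of the 12 was 0.01, the same as over all genes, with 6 below 0 and 6 above. In all epithelial cells edgeR called none of 14, with 3 at an unadjusted p under 0.05 and 1 called by DESeq2.

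Other enzymes of the first phase of drug metabolism fell in part. Of 16 listed genes for oxidation and hydrolysis other than P450, 11 were tested in enterocyte-like cells, 4 were called lower and none higher, with a median log2 fold change of -0.79 that is the same with Ces1g at its bound. Fmo5, a flavin monooxygenase, had 49.4 and 38.3 CPM in allogeneic and 137.6 and 132.8 CPM in syngeneic libraries and fell by 1.53 on the log2 scale (SE 0.24, edgeR adjusted p = 0.0245). The carboxylesterase Ces1f had 13.1 and 2.65 CPM in allogeneic and 58.1 and 68.0 CPM in syngeneic libraries and fell by 3.28 on the log2 scale (SE 0.55, edgeR adjusted p = 0.0281). Ces1g had no UMI in the allogeneic libraries and 5.89 and 8.75 CPM in the syngeneic ones (edgeR adjusted p = 0.0191), which makes it at least 27.4-fold lower against a floor of 3 UMIs over the allogeneic group. Ces1d had 1 UMI in allogeneic and 38 in syngeneic libraries, a ratio of the syngeneic to the allogeneic level per UMI of 82.3 (95% counting interval 13.9 to 3340, edgeR adjusted p = 0.0247). Ces1f, Ces1g and Ces1d met the filter on low counts only through the syngeneic libraries, so they could hardly be called other than lower. In all epithelial cells none of 13 was called by edgeR, with 5 at an unadjusted p under 0.05, and DESeq2 called 4 lower.

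Genes on which P450 enzymes depend were not called by edgeR in enterocyte-like cells. Of the 4 electron donors, Cyb5a, a cytochrome b5, had 782.5 and 439.1 CPM in allogeneic and 766.9 and 699.5 CPM in syngeneic libraries (log2 fold change -0.19, adjusted p = 0.823). Por had 152.3 and 68.8 CPM in allogeneic and 69.2 and 59.3 CPM in syngeneic libraries (log2 fold change 0.83, adjusted p = 0.271) and Cyb5r3, a cytochrome b5 reductase, had 120.3 and 68.4 CPM against 231.7 and 215.9 CPM (log2 fold change -1.18, adjusted p = 0.0810). Por and Cyb5r3 had an unadjusted p under 0.05, and DESeq2 called 1 of the 4 lower. Of the genes for heme synthesis and breakdown, 7 were tested and none had an unadjusted p under 0.05 or was called by DESeq2, with Alas1, the rate-limiting enzyme of heme synthesis, at 64.1 and 115.8 CPM in allogeneic and 84.2 and 83.5 CPM in syngeneic libraries. Of the nuclear receptors and regulators, 11 were tested, 2 had an unadjusted p under 0.05, and DESeq2 called 1 higher. Hnf4a was at 164.9 and 92.4 CPM in allogeneic and 196.0 and 222.3 CPM in syngeneic libraries (log2 fold change -0.64, SE 0.29, adjusted p = 0.342), and the bile acid receptor gene Nr1h4 at 231.1 and 142.9 CPM against 85.3 and 85.1 CPM (log2 fold change 1.21, SE 0.27, adjusted p = 0.0651). Nr1i2, which encodes PXR, had 62.0 and 27.0 CPM in allogeneic and 34.2 and 33.4 CPM in syngeneic libraries, where the groups overlapped. Nr1i3, which encodes CAR, had 9.45 and 9.65 CPM against 17.7 and 16.7 CPM (log2 fold change -0.69, adjusted p = 0.334).

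The conjugating enzymes and the efflux pumps, which follow the P450 enzymes in drug handling, also had no edgeR call. Of 12 conjugation genes tested, 6 had an unadjusted p under 0.05 and DESeq2 called 1 higher. They lay 6 below and 6 above 0, with Mgst1, a microsomal glutathione transferase, at 1997 and 869.5 CPM in allogeneic and 844.8 and 727.7 CPM in syngeneic libraries. Of 4 efflux pumps tested, 1 had an unadjusted p under 0.05 and DESeq2 called none. Abcb1a, which encodes P-glycoprotein, was at 314.0 and 90.5 CPM in allogeneic and 146.4 and 163.8 CPM in syngeneic libraries, which overlap.

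Genes of position along the gut and the villus were measured in the same cells. Of 11 proximal genes tested, Leap2 was called higher, at 140.7 and 128.5 CPM in allogeneic and 42.3 and 31.0 CPM in syngeneic libraries (log2 fold change 1.99, SE 0.27, edgeR adjusted p = 0.0145). Most of the proximal genes went the other way, with 7 below 0 and 4 above, and DESeq2 called 2 higher and 1 lower. Of 11 distal genes tested, Fgf15, an ileal hormone induced by bile acids, was called lower, at 41.0 and 28.8 CPM in allogeneic and 110.3 and 122.5 CPM in syngeneic libraries (log2 fold change -1.66, SE 0.25, edgeR adjusted p = 0.0206). The distal genes lay 5 below and 6 above 0, and DESeq2 called 1 higher and 3 lower. Of 5 colon genes tested, Mettl7b was called lower (log2 fold change -1.82, SE 0.35, edgeR adjusted p = 0.0444). The colon genes lay 2 below and 3 above 0, with a median of 0.10. None of 8 villus-tip and none of 8 villus-base or mid-villus genes was called by edgeR, with 4 and 3 at an unadjusted p under 0.05 and 2 and 1 called by DESeq2.

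The 5 genes outside the P450 family most alike to the mean pattern of the 9 members were Rdh7, a retinol dehydrogenase, Ocm, Bst1, Slc5a11, an inositol transporter, and Fgf15. Likeness was Pearson's r of log2(CPM + 1) over 28 sums of 7 classes in 4 libraries, among 6095 candidates, and came to 0.948, 0.942, 0.942, 0.940 and 0.940. The 28 points share libraries and depth, so r is a description only. Rdh7 had 16.8 and 11.3 CPM in allogeneic and 73.2 and 54.9 CPM in syngeneic enterocyte-like cells, and Bst1 had 27.3 and 21.6 CPM against 97.1 and 132.8 CPM.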

How the data were processed

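The authors deposited UMI counts per gene and cell for 4 10x Genomics 3′ libraries, not normalized. The submitters' processing notes name Cell Ranger 2.1.1 and mm10, and per the file headers the matrix software version was 3.1.0. The sources used here give no annotation release or barcode filter. The dense text matrices were not used here.

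Kept barcodes had 500 or more genes, 1000 or more UMIs and no more than 20% mitochondrial UMIs (12285 of 16565). Scrublet, as in scanpy 1.11.5, removed 89 doublets, or 0.72%. Cells were clustered on 2000 variable genes without P450, listed, interferon or stress genes, with 30 principal components, 15 neighbours and Leiden resolution 1. Clusters were named from marker lists. UMIs of a class were added up within each library and tested with edgeR 4.0.16 (filterByExpr, TMM, robust quasi-likelihood test, Benjamini-Hochberg adjustment over all genes, threshold 0.05), on simulated data first. DESeq2 1.42.0, RLE scaling, no filter on low counts, other cell filters, gates and clusterings and each library left out were tried. Intervals are exact and cover counting error only, and the floor is 3 counts. P-values weigh the group difference against the spread between 2 pools per group, which the fit moderates over all genes tested, and so do not rest on a gene's own pools alone.

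The 9 members and all lists were chosen with earlier results of these data known. The text names the members, other P450 genes and list genes past the threshold (up to 4 per list), those of highest level where none passed, and 5 genes of like pattern. Por, Cyb5r3, Nr1i2, Nr1i3, Fabp6 and the clusters described were named after their values were seen.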

Additional observations from a re-analysis of the deposited data

How the results depend on the processing

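No paired analysis was possible because replicate numbers were given in accession order and tie no library to another. In enterocyte-like cells the 4 members called became 3 at resolution 0.5 and 2, among cells not proximal-leaning also 3, 2 under per-cell gates of 0.5% and 1%, 5 without the filter on low counts and 7 with a mitochondrial limit of 10%, and between 4 and 9 when each library was left out. DESeq2 also called 4, with Cyp3a13 in and Cyp2c68 out. All of these fits but the one without it used the filter on low counts. The limit that filter sets, given above, can hold for their lower members. Cyp2c66 was past the threshold in 14 of 14 alternatives, Cyp2d26 in 15 of 16 (not at the 0.5% gate, adjusted p = 0.110), Cyp2c68 in 14 of 16 (not with DESeq2 or at the 1% gate) and Cyp2b10 in 11 of 16 (not at resolution 0.5 or 2, at either gate, or in cells not proximal-leaning), with adjusted p of up to 0.130 for Cyp2c68 and 0.0805 for Cyp2b10. In all epithelial cells the count of 1 became 0 with RLE scaling and with the 10% mitochondrial limit (7 and 6 members at an unadjusted p under 0.05, edgeR), 2 without the robust option, 6 with DESeq2 and 7 without the filter on low counts, and 2 to 8 when each library was left out. In other epithelial cells the count of 1 became 2 without the Car1-led cluster and 0 to 4 when each library was left out. The causes were not tested. In enterocyte-like cells no member changed direction in 16 alternative fits (14 for Cyp2c66). Cyp2c55 changed sign in all epithelial cells without allogeneic 1 (0.71) and without syngeneic 2 (0.47), with a range of -1.67 to 0.71 over the libraries left out. In other epithelial cells Cyp2c55 turned to -2.86 without the Car1-led cluster, and ranged from -2.36 (without allogeneic 2) to 4.70 over the libraries left out, Cyp3a13 from -0.01 (without allogeneic 2) to 1.32, and Cyp2c65 from -2.40 to 0.22 (without allogeneic 1). Cyp2c66 rests on 1 allogeneic and 41 syngeneic UMIs in enterocyte-like cells.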
